A study of Mus musculus with 74 samples.

Results

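Zfp456, Zfp493, Zfp712, Zfp874a and Zfp874b are KRAB zinc finger proteins (KRAB-ZFPs) whose genes lie on mouse chromosome 13, described here for their mostly small deposited peak sets. Their peaks were taken as every row of the series' peak table that carries 1 of these 5 names. That gave 626 peaks of the 53011 peaks of 67 KRAB-ZFPs: 72 for Zfp456, 117 for Zfp493, 197 for Zfp712, 148 for Zfp874a and 92 for Zfp874b. The question was where each of these proteins bound the genome, and whether the paralogs Zfp874a and Zfp874b bound the same places.

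The study expressed epitope-tagged KRAB-ZFPs in mouse cells and located their binding sites with ChIP-seq, the sequencing of DNA that is pulled down together with the tagged protein. All 5 samples were F9 EC cells, a mouse embryonal carcinoma line, which stably expressed a codon-optimized open reading frame with a C-3XHA tag. Cells were pools of puromycin-resistant clones, chromatin was precipitated with the HA antibody ab9110, and the controls were F9 input and an HA control ChIP. The proteins were thus overexpressed and tagged, and since the table holds no expression values, neither the amount of each protein nor the identity of the cells could be checked. Each KRAB-ZFP had 1 sample, so there are no replicates, no test was made, and every interval below is a 95% Wilson interval (or a Newcombe interval for a difference of shares) that covers counting error only. For a count of 0, the limit given is the share that 3 counts of the total would make. Sequencing depth is unknown here, so a missing peak may lie under the calling threshold. Among the 23 KRAB-ZFPs with the same cells, tag, antibody and controls, peak numbers ran from 72 to 1812 with a median of 188. Zfp456 had the fewest, and Zfp874b ranked 22, Zfp493 20, Zfp874a 14 and Zfp712, which was above the median, 11. Calling thresholds differed among the 23, and the largest sets (Zfp457, Gm13235 and Zfp709) were called at a looser p-value than the 5 described here. Ranks and medians of the 23, here and below, thus compare sets called at unlike thresholds.

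KRAB-ZFPs are DNA-binding proteins with a KRAB domain, which recruits the corepressor Trim28, and an array of C2H2 zinc fingers. In each finger a few residues of a helix contact the DNA, so the order of fingers along the protein sets which bases the array prefers. Many KRAB-ZFPs are known to bind transposable elements, and related genes often lie in clusters that grew by duplication. The genes of the 5 proteins lie within 1 such stretch (build mm9, gencode vM1). Zfp712 is at chr13:67139530-67162106, Zfp456 at chr13:67446182-67476746, Zfp874a at chr13:67527195-67552560 and Zfp874b at chr13:67572450-67585189, all on the minus strand. Zfp493 is at chr13:67880630-67890019 on the plus strand.

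Zfp456 had a short sequence in common among most of its peaks. The 8-mer CAGGGTCC (reverse complement GGACCCTG, both strands searched) led on the odd-numbered chromosomes, where it was chosen as the 8-mer with the largest excess over windows 1 kb to either side. The 5 highest peaks that hold it and have no UTR base in the stretch show the 8-mer in its surroundings. Each is printed in the orientation of the 8-mer, with its mm9 position and strand, and 1 match is in capitals (the stretch near Apobec3 holds another):
Near Zfp868, chr8:72149647-72149706, minus: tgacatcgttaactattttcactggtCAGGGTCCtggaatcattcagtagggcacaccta
Prtg intron, chr9:72682066-72682125, plus: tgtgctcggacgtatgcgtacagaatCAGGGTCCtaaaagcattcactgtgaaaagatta
Near Apobec3, chr15:79712966-79713025, minus: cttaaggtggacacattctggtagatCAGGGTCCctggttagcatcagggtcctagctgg
Near 2900041M22Rik, chr11:117470288-117470347, plus: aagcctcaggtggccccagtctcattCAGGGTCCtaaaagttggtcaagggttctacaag
1700019D03Rik intron, chr1:53010695-53010754, minus: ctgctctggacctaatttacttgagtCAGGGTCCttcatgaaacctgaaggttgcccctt

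On the even-numbered chromosomes and X, which were not used to choose it, the 8-mer was in 19 of 30 Zfp456 windows (63.3%, 45.5 to 78.1) and in 0 of 60 flanking windows, which allows a share of up to 5%. Windows here are the deposited 200 bp around the summit, with 1 window kept per sequence family (defined below). Over all 72 peaks it was in 42 (58.3%), the highest share among the 67 KRAB-ZFPs. The next was Gm13152 with 2.33%, the median KRAB-ZFP had 0.536%, and 1.34% of 33922 windows of 200 bp around annotated transcript starts held it. Among 39 Zfp456 windows with families counted once, the only further base shared by at least 60% was a T after the 8-mer, which gives CAGGGTCCT. The match lay near the summit: its centre was within 25 bp of the summit in 24 of the 42 windows, with a median distance of 20 bp. Of the 20 peaks with the highest score, 16 held it. Median fold enrichment was 20.9 in peaks with the 8-mer and 17.4 in the other 30.

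Zfp493, Zfp712 and the 2 paralogs did not have such a common word. The leading 8-mer of Zfp712 was CAAGGTCA (reverse complement TGACCTTG), which holds AGGTCA, known as the half-site of nuclear receptors. It was in 11 of 72 held-out Zfp712 windows (15.3%, 8.75 to 25.3) and in 3 of 144 flanking windows (2.08%, 0.711 to 5.95), intervals that do not overlap. Over all 197 peaks it was in 39 (19.8%), again the highest share of the 67 KRAB-ZFPs, against a median of 1.36% and 0.92% of windows at transcript starts. These peaks include the windows used to choose it, where it was in 24 of 71 with families counted once. The next shares were 10.3% in Zfp493, 9.10% in Gm13154, 6.94% in Zfp456 and 6.76% in Zfp874a, so the 8-mer was not particular to Zfp712. The nearest match was within 25 bp of the summit in 23 of the 39 Zfp712 windows, with a median distance of 19 bp. Where a window held several matches, taking the nearest by itself shortens this distance, so it cannot be set beside that of Zfp456. None of the 39 lay within 1 kb of a transcript start, compared with 37 of the other 158. In 21 of the 39 windows the 8-mer occurred more than once, up to 11 times in 1 window, so that part of these windows were tandem arrays. The 3 stretches below, from peaks ranked 5, 8 and 9 by score, show a single match and repeated ones, with 1 match in capitals:
Vash2 intron, chr1:192780962-192781021, plus: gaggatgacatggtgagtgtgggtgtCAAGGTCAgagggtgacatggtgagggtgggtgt
Cirh1a intron, chr8:109431529-109431588, minus: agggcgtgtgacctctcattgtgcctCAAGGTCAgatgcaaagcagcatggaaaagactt
79.3 kb from Glrx3, chr7:144708615-144708674, minus: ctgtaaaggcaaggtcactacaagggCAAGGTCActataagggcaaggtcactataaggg

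**Figure D1:**
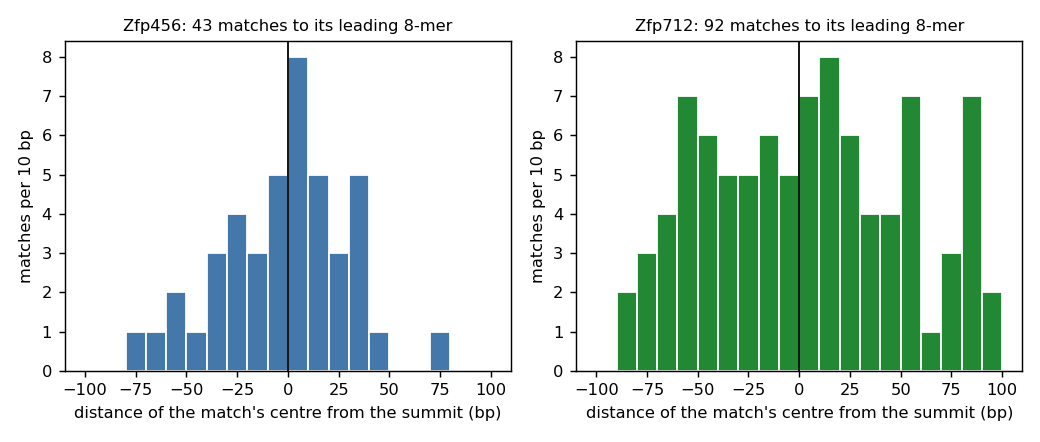
Position of every match to the leading 8-mer in the 200 bp windows of Zfp456 (left, 43 matches) and Zfp712 (right, 92 matches), as the distance of the match's centre from the summit in bp, counted per 10 bp. Every copy in a window is counted, which for Zfp712 includes arrays of up to 11 matches in 1 window, and its matches spread more widely. The nearest match lay at a median of 19 bp from the summit in Zfp712 and 20 bp in Zfp456. These medians are not comparable, since 21 Zfp712 windows but 1 Zfp456 window held more than 1 match.

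The same 8-mer CAAGGTCA led for Zfp493, but with 5 of 44 held-out windows (11.4%, 4.95 to 23.98) against 3 of 88 flanking windows (3.41%, 1.17 to 9.55), whose intervals overlap. For Zfp874b the leading 8-mer AAGGAAAG of the odd-numbered chromosomes was in 0 of 34 held-out windows, which allows a share of up to 8.82%. For Zfp874a with 1 window per family the leading 8-mer ACCTTGCA was in 0 of 32, which allows a share of up to 9.38%. The sequence that Zfp874a windows had in common was that of a family, described next.

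Zfp874a bound 1 diverged sequence family in about 1 of 2 peaks. Families were formed by aligning the windows of all 5 proteins to each other (at least 50 aligned bases and 70% identity) and joining windows linked directly or through others. The largest family held 116 windows, 75 of them from Zfp874a (50.7% of its peaks, 42.7 to 58.6), 22 from Zfp493, 14 from Zfp874b, 3 from Zfp712 and 2 from Zfp456. This family was a chain: Zfp874a windows had 1818 linked pairs among themselves and 318 with Zfp874b, but 6 with Zfp493 in all families. At 80 aligned bases it split into a family of 73 Zfp874a and 7 Zfp874b windows and a family of 15 Zfp493 windows alone. The hub, the Zfp874a window with the most links, lies 35.6 kb from the start of Parp11 between genes. It is printed whole on the plus strand, with capitals where at least 50% of the linked windows aligned and at least 80% of those carry the hub's base:
Zfp874a hub, chr6:127463137-127463336: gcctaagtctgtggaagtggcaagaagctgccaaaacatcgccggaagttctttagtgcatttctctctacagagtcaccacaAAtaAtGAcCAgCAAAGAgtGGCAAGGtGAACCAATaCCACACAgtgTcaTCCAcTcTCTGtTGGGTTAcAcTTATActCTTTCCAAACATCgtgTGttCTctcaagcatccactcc

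The copies in this family were diverged. The 76 windows linked to the hub (70 of Zfp874a and 6 of Zfp874b) were 70.2 to 89.4% identical to it, with a median of 78.4% over a median of 107 aligned bases. Of the 75 Zfp874a family windows, 72 had a median 24-mer that occurs once in the genome, so reads in them could mostly be placed. Of the 70 linked Zfp874a windows, 50 had a summit that could be projected onto the hub, and these summits fell at about the same place. Of the 50, 35 lay within 20 bp of the hub's own summit (median distance 13 bp). The rest of the 70 had no aligned base at the summit, so the spread over all linked windows may be larger. In mm9 the hub aligned at 2424 places with at least 50 bases and 70% identity, and 91 of these (3.75%, 3.07 to 4.59) had a Zfp874a peak at or near them. The search of the whole genome was less sensitive than that among the windows, so it can miss diverged copies. Several places can also lie at 1 peak, so these shares are of places found and not of all copies. The share was 54 of 2049 places at 70 to 80% identity and 36 of 373 (9.65%) at 80 to 90%. The hub was chosen as a peak window with many links, so a higher share at higher identity is partly set by that choice. Among the windows of all 67 KRAB-ZFPs, 82 aligned to the hub, its own window included. Of these, 68 were of Zfp874a, 6 of Zfp874b and 2 of Zfp738. The search among the 5 proteins linked 70 other Zfp874a windows to the hub, so this one missed some.

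**Figure D2:**
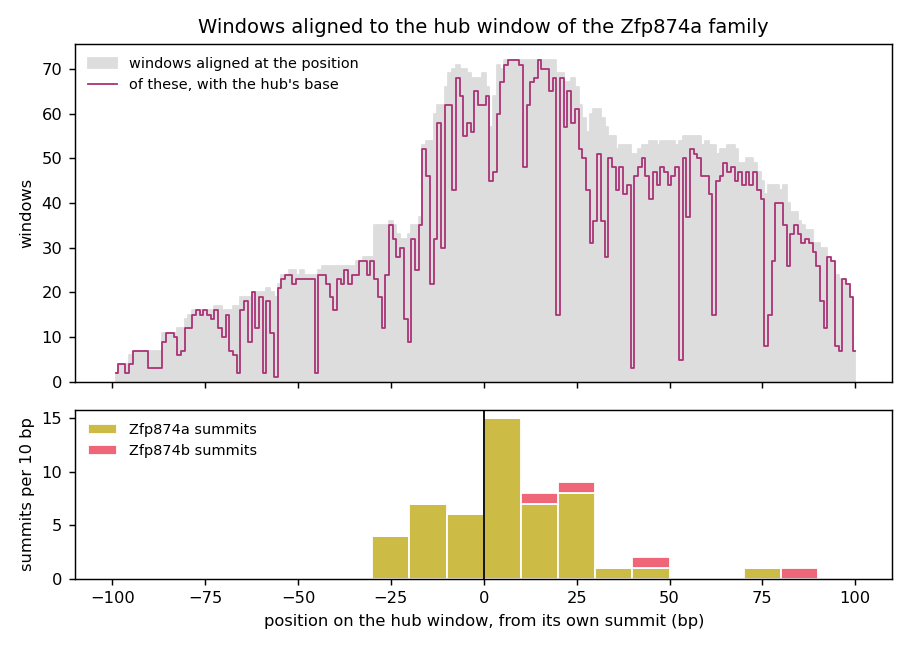
Windows aligned to the hub window of the Zfp874a family. Above, the number of windows aligned at each position (grey) and of those with the hub's base (line). Below, summits of Zfp874a and Zfp874b windows that could be projected onto the hub, per 10 bp. In both panels the x axis is the distance in bp from the hub's own summit. Of the 50 Zfp874a summits shown, 35 lie within 20 bp of it.

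With all windows kept, the leading 8-mer of Zfp874a was GCATTGGT (reverse complement ACCAATGC), in 21 of 71 held-out windows (29.6%, 20.2 to 41.0) and 1 of 142 flanking windows (0.704%). All 50 Zfp874a windows that hold it belong to a family, so these counts are of related copies and not of independent loci. Aligned on it, the bases shared by at least 60% of the 50 windows read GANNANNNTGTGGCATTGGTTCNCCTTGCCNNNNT. The highest such peak and the others ranked 6 and 13, in the orientation of the 8-mer, show this stretch:
6.17 kb from Wasf2, chr4:132680225-132680284, minus: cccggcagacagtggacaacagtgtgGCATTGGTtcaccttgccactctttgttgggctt
Near Gm15052, chr6:52077276-52077335, minus: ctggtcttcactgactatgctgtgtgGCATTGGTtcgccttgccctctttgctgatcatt
16.6 kb from Acsl1, chr8:47539781-47539840, plus: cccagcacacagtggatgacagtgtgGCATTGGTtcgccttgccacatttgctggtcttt

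The 8-mer was also in 49.6% of the 1517 windows of Gm8898, the only KRAB-ZFP with a higher share than Zfp874a (33.8%). None of the Gm8898 windows aligned to the Zfp874a hub, and Gm8898 shared 0 loci with Zfp874a.

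Zfp874a peaks outside the family were of another kind. A transcript start was within 1 kb of 24 of these 73 peaks (32.9%), against 1 of 75 in the family (1.33%), and their median GC content was 54% against 46%. Their enrichment was similar, with a median fold of 25.5 outside and 27.5 inside the family, and 9 of the 20 peaks with the highest score were in it. The 5 highest peaks of Zfp874a had folds of 49.9 to 66.5. The first, with 495 tags and a fold of 66.5, was the family copy 6.17 kb from Wasf2, which encodes an actin regulator. The others lay between genes 31.2 kb from Lrrc30 (fold 58.8) and 16.3 kb from A130022J15Rik (66.3), in an exon of Gm14963 3.68 kb from the start of Ehd1 (51.3), and in an intron of Zfp13 (49.9). Zfp13 is itself a zinc finger gene.

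Of the 25 Zfp874a peaks within 1 kb of a transcript start, the 3 with the highest score were 0.172 kb from Rwdd2b (205 tags, fold 48.8), 0.046 kb from Tlr2, a Toll-like receptor gene (199 tags, fold 47.5), and 0.26 kb from A430005L14Rik (162 tags, fold 40.0). Over all 148 peaks, 95 lay between genes (64.2%) and 45 in introns (30.4%).

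Zfp874a and Zfp874b are close copies in protein sequence. Translated from gencode coding transcripts, both have 447 residues, of which 416 of 446 aligned ones were identical (93.3%). Each had 10 C2H2 fingers by the pattern used, and 9 fingers were aligned with each other. By a stricter pattern Zfp874a had 9 fingers and Zfp874b 10. A finger without an aligned counterpart was not compared, so the counts that follow cover the 9 aligned fingers only. At the 4 helix positions of a finger that are known to contact DNA (-1, 2, 3 and 6), 35 of 36 residues were identical (97.2%), and 8 of the 9 fingers were identical at all 4. The difference was in the second aligned finger. Outside the fingers the proteins were less alike, with 123 of 137 residues identical before the first finger (89.8%). No other pair of the 5 proteins came near: the next highest identity at the contact positions was 40.6% (Zfp456 and Zfp874b), and the next highest over the whole protein was 73.4% (Zfp493 and Zfp712).

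Their peak sets shared 12 loci. These are 8.11% (4.70 to 13.6) of the Zfp874a peaks and 13.04% (7.62 to 21.4) of the Zfp874b peaks, with windows overlapping by at least 25%. It was the largest overlap among the 10 pairs of these proteins, the next being 6 loci of Zfp456 and Zfp493. Summits of the shared loci were 1 to 69 bp apart, with a median of 25 bp. Of the other 80 Zfp874b peaks 79 lay more than 1 kb from any Zfp874a peak, the exception being the one near Slc7a7, and the median distance of a Zfp874b summit to the nearest Zfp874a summit was 3599 kb.

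The shared loci were the highest peaks of Zfp874b. They made up 7 of its 10 peaks with the highest score (70%, 39.7 to 89.2), 3 of the next 40 and 2 of the remaining 42. In Zfp874a they were 2 of the top 10, 5 of the next 40 and 5 of the remaining 98. At all but 1 locus the score was higher in Zfp874a, as were the tags, the exception being the locus near Mtf2. Fold was also higher in Zfp874a at 11 of the 12, with medians of 32.4 in Zfp874a and 21.5 in Zfp874b over the 12 loci. Zfp874a was also the more enriched sample elsewhere, with a median fold of 26.3 at its other peaks, against 21.4 in Zfp874b. Tags and scores depend on depth, and the part of depth or of the amount of tagged protein in these gaps was not tested.

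**Figure D3:**
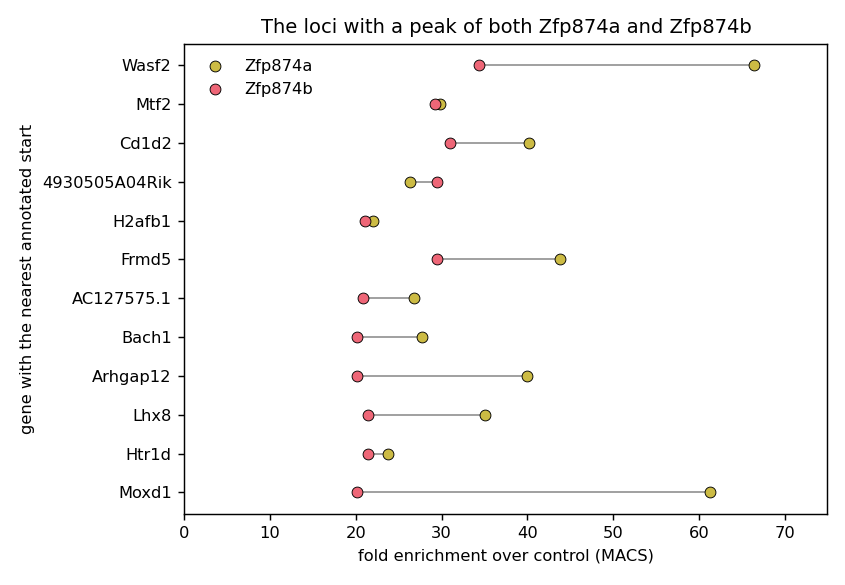
Fold enrichment over control at the 12 loci with a peak of both Zfp874a and Zfp874b, each named by the gene with the nearest annotated start and ordered from the top by the lower of the 2 scores. Zfp874a is higher at 11 of the 12, from 1.02 times near Mtf2 to 3.04 times in the Moxd1 intron, and lower near 4930505A04Rik (0.89 times).

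The first peak of both proteins was the same locus near Wasf2. There Zfp874a had 495 tags and a fold of 66.5, and Zfp874b 223 tags and a fold of 34.4. Near Mtf2, which encodes a Polycomb-associated protein, Zfp874a had 151 tags (fold 29.9) and Zfp874b 201 tags (fold 29.2). Near Cd1d2, which encodes a lipid antigen-presenting protein, folds were 40.3 and 31.0. The widest gap was in an intron of Moxd1, a monooxygenase-like gene, where Zfp874a ranked 9 with 185 tags and a fold of 61.3 and Zfp874b ranked 63 with 35 tags and a fold of 20.1. A fold of 20.1 lies just above the threshold of 20 set for Zfp874b.

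The remaining shared loci had Zfp874a folds of 22.0 to 43.8 and Zfp874b folds of 20.1 to 29.5. They lay 22.5 kb from 4930505A04Rik, 7.64 kb from H2afb1, 14.9 kb from Frmd5, 6.18 kb from AC127575.1, 51.04 kb from Lhx8, a LIM homeobox gene, and 18.0 kb from Htr1d, a serotonin receptor gene. Only 2 were near a start: 0.482 kb inside Bach1, a heme-regulated transcription factor gene, and 0.231 kb from Arhgap12. Of the 12 loci, 9 had no peak of another KRAB-ZFP. The locus near H2afb1, at chr2:17910825-17911024 in the Zfp456 set, was the only one with a peak of all 5 proteins, beside Gm13235, Zfp709, Zfp759, Zfp810, Zfp882 and Zfp938. Folds there were 12.9 in Zfp456, 17.2 in Zfp493, 30.5 in Zfp712, 22.0 in Zfp874a and 21.1 in Zfp874b.

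The Zfp874a family was part of this overlap. At 80 aligned bases, 6 of the 12 shared loci belonged to it, and 5 of them held the 8-mer GCATTGGT. Of the 7 Zfp874b windows in the family, 6 were at a Zfp874a peak and 5 were among the top 10 of Zfp874b. Their median fold was 29.5, against 21.4 for the other 85 Zfp874b peaks. In the Moxd1 intron the window holds 2 matches to the 8-mer. It is printed on the plus strand with the 69 windows linked to it marked in capitals as for the hub above:
Moxd1 intron, Zfp874b window, chr10:23960356-23960555: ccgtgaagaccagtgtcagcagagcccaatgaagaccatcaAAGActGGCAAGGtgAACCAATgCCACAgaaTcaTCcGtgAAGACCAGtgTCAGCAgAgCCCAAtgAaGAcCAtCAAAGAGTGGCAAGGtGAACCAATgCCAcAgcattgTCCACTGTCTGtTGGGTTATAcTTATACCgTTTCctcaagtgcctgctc

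Zfp874b had the narrowest range of enrichment of the 5, from 20.06 to 34.4, and the fewest tags per peak, with a median of 41. Below the top of the list, its highest peak that Zfp874a did not have was in an intron of Enah, an actin regulator gene (110 tags, fold 22.8), where no other KRAB-ZFP had a peak. The next was a window 11.8 kb from Dab1, a Reelin pathway gene (67 tags, fold 26.3), at which 7 other KRAB-ZFPs had peaks. Between them ranked a window near Slc7a7 (93 tags, fold 25.7) that overlapped no Zfp874a window but lay 221 bp from a Zfp874a peak (107 tags, fold 24.1). The 7 peaks near transcript starts had folds of 20.1 to 25.5, and 2 of them were the Bach1 and Arhgap12 loci that Zfp874a also had. Of the 92 peaks, 57 lay between genes (61.96%) and 29 in introns (31.5%), close to the shares of Zfp874a, with a difference between genes of 2.23 percentage points (-9.99 to 14.8).

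Beyond the family the paralogs' sets differed most in how far other KRAB-ZFPs had peaks at the same loci. Of the Zfp874b peaks, 58 of 92 (63.04%, 52.8 to 72.2) overlapped a peak of another KRAB-ZFP, and 22 of 148 (14.9%, 10.0 to 21.5) of the Zfp874a peaks did. Over the pooled peaks of the other 62 KRAB-ZFPs this share was 13.6%, and the median of the 23 KRAB-ZFPs of the same setup was 40.2%. The share was 48.2 percentage points lower in Zfp874a (interval of Zfp874a minus Zfp874b from -58.5 to -36.0). With the paralog itself left out, it was 49 of 92 and 13 of 148. Loci with 5 or more other KRAB-ZFPs were 9 of 92 in Zfp874b (9.78%) and 3 of 148 in Zfp874a (2.03%). The partners of Zfp874b were Gm13235 (24 loci), Zfp457 (19), Zfp709 (14), Zfp759 (12) and Zfp874a (12), and each of the first 4 gave 1.05 to 1.47% of its own peaks. Gm13235, Zfp457 and Zfp709 were called at looser thresholds than Zfp874b. With all samples at p under 1e-10 and a fold over 20, the share at loci of others was 44.6% in Zfp874b and 14.2% in Zfp874a. The partners of Zfp874a other than Zfp874b were Gm13152 (5), Zfp759 (4), Gm13235 (3) and Zfp493 (3). Of the 23 KRAB-ZFPs of the same setup, Zfp874b ranked 4 and Zfp874a 19 by this share.

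All 5 named partners of Zfp874b come from that same setup, and 17 of its 58 shared peaks had a partner from another one. For the rest, shared controls and binding at the same places cannot be told apart. Fold did not mark these loci within Zfp874b, with medians of 21.5 at loci of another KRAB-ZFP and 21.4 elsewhere. Median GC content was 46.8% at the former and 41% at the latter. Peaks near transcript starts were 25 of 148 in Zfp874a (16.9%, 11.7 to 23.7) and 7 of 92 in Zfp874b (7.61%, 3.73 to 14.9), a difference of 9.28 percentage points (0.354 to 17.2). Windows of repeated sequence, with a median 24-mer found at least 10 times in the genome, were 0 of 148 in Zfp874a, which allows a share of up to 2.03%, and 7 of 92 in Zfp874b (7.61%). The most repeated, 4.29 kb from Slc7a7 with a median of 215 copies, was the peak of Zfp874b ranked 8, and Gm13235 had a peak there too. The Zfp874a peak 221 bp away lay in single-copy sequence.

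**Figure D4:**
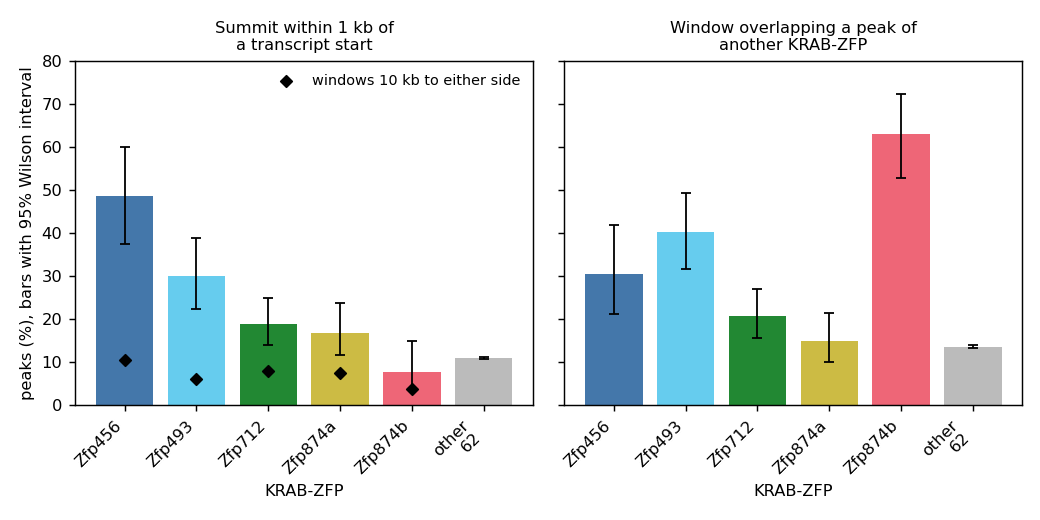
Share of peaks with the summit within 1 kb of an annotated transcript start (left) and with a window overlapping a peak of another KRAB-ZFP (right), in percent with 95% Wilson intervals. Grey bars pool the 52385 peaks of the other 62 KRAB-ZFPs and diamonds are windows 10 kb to either side of the peaks; Zfp456 leads on the left with 48.6% and Zfp874b on the right with 63.04%.

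Zfp456 lay near transcript starts more often than any other KRAB-ZFP of its setup, although 41 of its 72 peaks lay between genes (56.9%). Its summit was within 1 kb of a transcript start in 35 of 72 peaks (48.6%, 37.4 to 59.9), against 15 of 144 windows 10 kb to either side (10.4%, 6.41 to 16.5) and 11.02% of the pooled peaks of the other 62 KRAB-ZFPs. The share ranked 1 among the 23 KRAB-ZFPs of the setup, and Zfp493 ranked 2 with 35 of 117 (29.9%, 22.4 to 38.7). The median distance of the 35 Zfp456 summits to the start was 96 bp. After those at Zfp868, Eef1e1 and Dynlt1b, the next by score were 0.613 kb from Mybl1, a Myb family transcription factor gene, with 88 tags and the highest fold of the set (39.2), and 0.001 kb from Rfwd3, a ubiquitin ligase gene (112 tags, fold 18.4), beside the one in 1700019D03Rik printed above. The Rfwd3 start also had a Zfp493 peak (86 tags, fold 17.4) and is 1 of the 6 loci that Zfp456 and Zfp493 shared. Holding the 8-mer did not go with being near a start: 19 of 42 peaks with it and 16 of 30 without it were within 1 kb. Peaks of Zfp456 were also richest in GC of the 5, with a median of 53.3%, against 46.5% in the windows 10 kb away.

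The highest Zfp456 peak was 0.197 kb from the start of Zfp868, another zinc finger gene, with 111 tags and a fold of 37.9. The next were in an intron of Prtg (109 tags, fold 31.4) and 9.83 kb from Apobec3 (102 tags, fold 27.4), which encodes a cytidine deaminase that restricts retroviruses. The fourth was in a coding exon of Eef1e1 0.056 kb from its start (112 tags, fold 27.0), whose product belongs to the complex of aminoacyl-tRNA synthetases. The fifth was in a UTR of Dynlt1b (154 tags, fold 18.8), a dynein light chain gene. The largest family of Zfp456 was 4 windows at the starts of Dynlt1a, Dynlt1b, Dynlt1c and Dynlt1f, close gene copies on chromosome 17. The hub of this family was 93.7 to 95.9% identical to the other 3, so reads of these 4 peaks may be split between copies. The authors' false discovery rate of the Zfp456 peaks was 13.6 to 100% with none at 5% or less, the weakest of the 5 sets. In the other sets 98 of 117 (Zfp493), 142 of 197 (Zfp712), 130 of 148 (Zfp874a) and 72 of 92 (Zfp874b) peaks were at 5% or less. Their highest peaks mostly had higher rates. The peaks ranked 1 and 2 had 100% each in Zfp874b (near Wasf2 and Mtf2), 50% each in Zfp712 and in Zfp874a, and 0 and 50% in Zfp493.

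**Figure D5:**
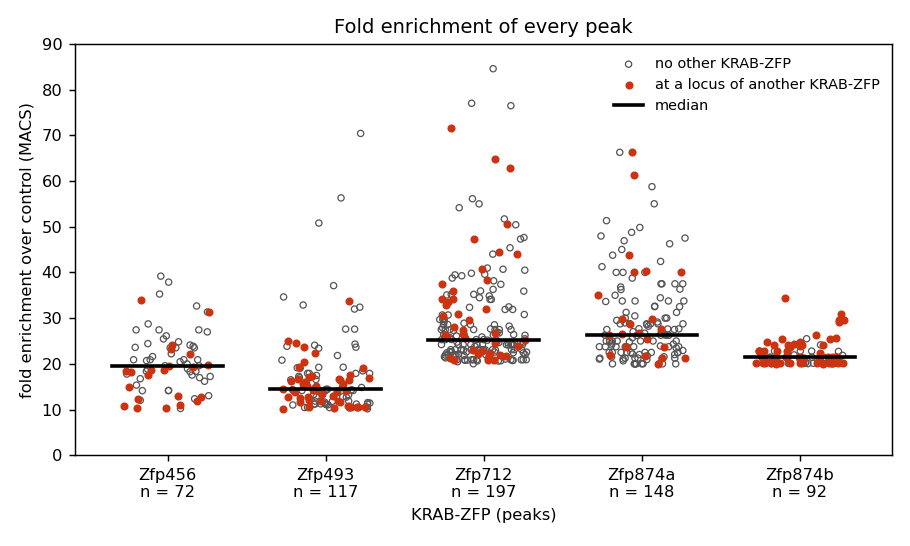
Fold enrichment over control of every peak of the 5 KRAB-ZFPs, with the median as a black line and filled points at loci where another KRAB-ZFP also had a peak. Medians are 19.6 (Zfp456), 14.4 (Zfp493), 25.3 (Zfp712), 26.4 (Zfp874a) and 21.5 (Zfp874b), and the threshold was 10 for the first 2 proteins and 20 for the others.

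Zfp493 had 1 group of strong peaks at which no other KRAB-ZFP had a peak. Its 5 highest peaks, with folds of 34.7 to 70.4, all lay between genes and all belonged to the family of 15 Zfp493 windows seen at 80 aligned bases. Of these, 2 were on chromosome 1, 24.2 kb from Gal3st2 (297 tags, fold 70.4) and 25.01 kb from Gm9994 (158 tags, fold 56.3). The other 3 were 50.2 kb from Gm11849 (fold 50.8), 255.2 kb from U7 (37.1) and 42.2 kb from Gm5185 (34.7). The median 24-mer of the peaks near Gal3st2, Gm9994 and Gm11849 occurs 2 times in mm9, so reads there may be split between copies. By this measure 10 of the 15 family windows were single-copy, and the highest count was 8. The 15 family peaks had a median fold of 23.7 and a median GC content of 37%, against 14.2 and 49.3% for the other 102 peaks. None of the 15 was within 1 kb of a transcript start, compared with 35 of 102, and none was at a locus of another KRAB-ZFP, compared with 47 of 102. The hub, near Gm9994, is printed on the plus strand and marked as above from 14 linked Zfp493 windows:
Zfp493 hub, chr1:95849274-95849473: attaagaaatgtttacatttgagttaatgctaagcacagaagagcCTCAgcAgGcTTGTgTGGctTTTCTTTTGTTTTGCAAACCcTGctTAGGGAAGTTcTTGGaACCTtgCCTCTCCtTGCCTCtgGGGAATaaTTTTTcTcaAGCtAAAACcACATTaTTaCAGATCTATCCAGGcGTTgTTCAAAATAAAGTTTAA

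The 14 windows were 72.8 to 98.5% identical to this hub. In the genome search used for the Zfp874a hub, which can miss diverged copies, its sequence aligned at 957 places in mm9. Of these, 16 (1.67%, 1.03 to 2.70) had a Zfp493 peak at or near them. Of places at least 90% identical 3 of 9 had one, of those at 80 to 90% 9 of 191 (4.71%), and of those at 70 to 80% 4 of 757 (0.528%). The hub's own place is among those at least 90% identical. Since the hub was chosen as the peak window with the most links, a higher share at higher identity is partly set by that choice. Where the summit could be projected onto the hub, in 12 windows, its median distance from the hub's own was 58 bp, and 9 of the 12 fell 46 to 70 bp to its right. Among the windows of all 67 KRAB-ZFPs, 20 aligned to the hub, of which 14 were of Zfp493, the hub's own included, and 3 of Gm14401. The 14 linked windows above do not include the hub, so this search missed at least 1 of them.

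The rest of the Zfp493 peaks had lower folds, mostly under 20, and many lay at loci of other KRAB-ZFPs. In all, 47 of 117 (40.2%, 31.7 to 49.2) overlapped another KRAB-ZFP's peak, led by Gm13235 (12), Zfp882 (10) and Zfp759 (9). That share was the median of the 23 KRAB-ZFPs of the setup, at rank 12, and was 13.6% over the pooled peaks of the others. Peaks near transcript starts were among these: 21 of the 47 were within 1 kb of one, compared with 14 of the other 70. The highest of all 35 were 0.748 kb from Wdr77 (95 tags, fold 32), 0.535 kb from a U1 gene (102 tags, fold 19.2) and 0.03 kb from Usp1, a deubiquitinase gene (105 tags, fold 16.1). Only 23 of the 117 peaks exceeded the fold of 20 that Zfp712, Zfp874a and Zfp874b had to pass, and 10 of those 23 were in the chain of 116 windows that includes the 15. Under that common threshold the share near transcript starts was 4 of 23 (17.4%), and the share at loci of other KRAB-ZFPs 5 of 23 (21.7%).

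Zfp712 had the most peaks and the highest single folds. Its top 3 peaks were copies of 1 sequence, spaced 7.61 and 7.64 kb apart next to Fcgr3, an Fc receptor gene, on chromosome 1. They had 528, 504 and 477 tags and folds of 84.6, 76.5 and 64.7, and their median 24-mer occurs 3 times in mm9, so reads could be placed at any of the 3. They hold GGTTCGANNCC (both strands searched), known as the internal promoter box of tRNA genes, which was looked for after these windows had been read. The stretch of the first peak is shown on the minus strand with the box in capitals, and gencode vM1 annotates no exon in it:
First Zfp712 peak, chr1:173010732-173010811: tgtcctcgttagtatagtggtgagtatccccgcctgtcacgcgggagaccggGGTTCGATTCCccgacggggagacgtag

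These 3 were the only Zfp712 windows with the box (1.52%), the other 4 proteins had 0, and 0 of 394 flanking windows of Zfp712 had it, which allows a share of up to 0.761%. The 1.52% could not have been 0, since the box was looked for after these 3 copies of 1 sequence had been read. Of the pooled other peaks 25 of 52385 held the box (0.0477%), spread over 12 KRAB-ZFPs, and 0.0649% of windows at transcript starts. Gm13152 also had a peak at 1 of the 3 places. The fourth peak was in a coding exon of Mccc1, a leucine catabolism gene, 0.072 kb from its start (355 tags, fold 77.0), and the fifth in the Vash2 intron printed above (361 tags, fold 50.6). Reads of the latter also fall in repeated sequence, with a median 24-mer found 5 times. Only 3 peaks had a median of 10 copies or more, among them those in an intron of Ltn1 (19 copies, fold 22.0) and in an intron of Macf1 (over 100 copies, fold 20.03).

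Zfp712 peaks lay in introns (89 of 197, 45.2%) as often as between genes (88 of 197). Within 1 kb of a transcript start were 37 of 197 (18.8%, 13.9 to 24.8), against 31 of 394 windows 10 kb away (7.87%, 5.60 to 10.95). At loci of another KRAB-ZFP were 41 of 197 (20.8%, 15.7 to 27.0), led by Gm13152 (9), Zfp810 (8) and Zfp759 (7). Its largest family was loose. It held 45 Zfp712 windows (22.8%, 17.5 to 29.2), but only 31 at 80 aligned bases and 4 at 80% identity. The hub, in an intron of Ext1, was linked to 15 windows at a median identity of 73.6%, of which 13 were of Zfp712. The search of mm9 found 969 places, and 6 of these had a Zfp712 peak. Since this is fewer than the linked Zfp712 windows, that search missed copies and gives no share of copies bound.

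KRAB-ZFP clusters and zinc finger exons are known targets of some KRAB-ZFPs. None of the 5 sets gathered at zinc finger genes as counted here. These were genes whose symbol starts with Zfp, Zkscan, Zscan or Zik, or is that of a KRAB-ZFP of the series. Zinc finger genes under other symbols were not counted. Within 10 kb of a zinc finger gene were 1 to 3 peaks of each protein, 0.855 to 2.03%, against 1.18% of the pooled peaks of the other KRAB-ZFPs. These were at Zfp868 (Zfp456), at Zfp27 and Zfp420 (Zfp493), in introns of Zfp292, Zfp532 and Zkscan5 (Zfp712), at Zfp13 and Zscan10, Zfp57, and Zfp397 and Zscan30 (Zfp874a), and in an intron of Zfp462 (Zfp874b). None of these peaks was on chromosome 13. Within 10 kb of an LTR end of the retrotransposon ETn, by exact copies of the study's 899 ETn capture sequences, were 1 to 3 peaks of each protein (0.676 to 2.78%), against 2.20% of the pooled peaks.

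A list of pluripotency genes and a list of silencing genes were looked up for a peak within 10 kb. Over all 22238 protein-coding genes, 488 (2.19%) had a peak of at least 1 of the 5 proteins within that distance, 0.279 to 0.764% for each protein alone, so the small counts below are given as values only. Of 11 pluripotency genes (Pou5f1, Nanog, Sox2, Klf4, Esrrb, Zfp42, Tbx3, Prdm14, Dppa3, Tfcp2l1 and Lin28a), 2 had a peak. One was a Zfp493 peak in an intron of Tbx3, 0.092 kb from a start, with 77 tags and a fold of 10.4. The other was a Zfp712 peak in an intron of Tfcp2l1, a transcription factor gene annotated as Tcfcp2l1, with 146 tags and a fold of 40.97. Of 15 silencing genes (Trim28, Setdb1, Atf7ip, Cbx1, Cbx3, Cbx5, Dnmt1, Dnmt3a, Dnmt3b, Uhrf1, Morc2a, Mphosph8, Zfp57, Suv39h1 and Suv39h2), 2 had a peak, both of Zfp874a. These were in an intron of Dnmt1, the maintenance DNA methyltransferase (87 tags, fold 25.01), and near Zfp57, a KRAB-ZFP of imprinted loci (101 tags, fold 22.2). Zfp456 and Zfp874b had no peak within 10 kb of a gene of either list.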

How the data were processed

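The peak table of the series was read as deposited. Per the study's methods and the submitters' processing notes, the authors mapped single 50-base reads to mm9 with Bowtie, trimming 3 bases and placing reads with several best positions at 1 of them at random. They called peaks per sample with MACS 1.4.2, kept peaks called against both input and the HA control, and set them to 200 bp around the summit. For each peak the authors deposited the tag count (raw reads), a score (-10 times log10 of the p-value), the fold enrichment (a ratio over local background) and a false discovery rate in percent. Thresholds were p under 1e-10 with a fold over 10 (Zfp456, Zfp493) or 20 (Zfp712, Zfp874a, Zfp874b). The study loosened settings where strict ones gave fewer than 50 peaks, so a threshold depends on its own sample. Random placement spreads the reads of near-identical copies.

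Of 53255 deposited peaks, 244 under 1 name that matches no label were not used, and 1 labelled KRAB-ZFP was not analysed here. Coordinates are mm9 (NCBIM37), counted from 1, with gencode vM1. Copy numbers were exact 24-mer counts over mm9, families came from NCBI BLAST 2.17.0 (reward 1, penalty -1, gap 2 and 1, low-complexity filter, e-value 1e-05), and proteins were translated from gencode coding transcripts and aligned with Biopython 1.88, in place of the RefSeq proteins planned. The functions that count copies, families, k-mers and fingers were tested on simulated data. Members and gene lists were chosen with earlier results of these data known. A listed gene that gencode names by an older symbol was matched through RefSeq synonyms (GRCm38.p6 table). Named peaks were the 5 with the highest score per protein, all loci shared by the paralogs, the hub of each largest family, zinc finger genes and listed genes with a peak within 10 kb, and the 5 partners with the most shared loci. Sequences are from the highest peaks that hold the match and have no UTR base. The box of tRNA genes, the split at 80 bases in detail, the hits near starts beyond the first 5 peaks and the comparison without the paralog were chosen after values were seen. Since each KRAB-ZFP had 1 sample, no test was made and peaks were not treated as replicates.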

Additional observations from a re-analysis of the deposited data

How the results depend on the processing

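No paired analysis was possible because each KRAB-ZFP had 1 sample. Of 116 alternative values of 52 results, 72 stayed within 1.5 times of a count or within the interval of a share or median, and 44 did not. Many of the latter are wider definitions. At 5 kb the shares near transcript starts were 63.9% (Zfp456), 47.0% (Zfp493), 37.1% (Zfp712), 29.7% (Zfp874a) and 21.7% (Zfp874b). With 2 or more copies the multi-copy shares were 6.94% (Zfp456), 13.7% (Zfp493), 12.2% (Zfp712) and 4.73% (Zfp874a). With 100 or more they were 0% (Zfp493), 0.508% (Zfp712) and 3.26% (Zfp874b). With 100 bp windows median GC content was 53% (Zfp712) and 50% (Zfp874a). A common threshold of p under 1e-10 and a fold over 20 left 33 Zfp456 and 23 Zfp493 peaks. A false discovery rate of 5% or less left 0 for Zfp456. Under the common threshold the shares at loci of other KRAB-ZFPs were 15.2% (Zfp456), 21.7% (Zfp493) and 44.6% (Zfp874b, still above the 14.2% of Zfp874a). Zfp493 then had 17.4% near starts, 0% multi-copy, a median GC of 39%, 43.5% in the largest family and 0% near ETn ends. Against KRAB-ZFPs of other setups alone the shares at loci of others were 23.1% (Zfp493), 6.08% (Zfp874a) and 18.5% (Zfp874b), so the gap between the paralogs kept its direction and was smaller. With the paralog left out, added after seeing the data, the share was 8.78% in Zfp874a. Families depended on the linking rule. At 80 bases the largest held 15.7% of Zfp712 and 7.61% of Zfp874b, at 80% identity 2.03% and 7.61%, and with 400 bp windows 253 windows chained into 1 family, with 41.9% (Zfp493), 35.03% (Zfp712), 60.1% (Zfp874a) and 42.4% (Zfp874b). Held-out 10-mers gave 20.0% (Zfp456), 0% (Zfp493) and 1.39% (Zfp712), 100 bp windows 2.27% (Zfp493), and all windows 29.6% (Zfp874a). Within 5 kb of an ETn end was 0.855% of Zfp493, and in a zinc finger gene's span 0% of Zfp456. The loci shared by the paralogs numbered 12 to 13 under other overlaps. Depth is unknown, so absent peaks were not read as absent binding.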
